A study of Mus musculus with 16 samples.

Results

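The genes described here are the NF-kB subunits Rel, Rela, Relb and Nfkb2, the cytoplasmic inhibitors Nfkbia and Nfkbie, and the nuclear IkB proteins Nfkbiz and Bcl3, measured in mouse dorsal skin. A probe set, the group of oligonucleotides that reads a transcript, counted for a gene when the platform annotation gave it that gene's symbol alone. By this rule 8 of 9 listed genes, out of 18194 genes on the array, had 16 probe sets. All 16 exceeded a log2 value of 4 in at least 2 arrays, the filter on low values. Nfkbie 1431843_a_at passed it only through day-0 arrays (5 of 9, and 0 of 7 at day 5), so a test of its difference from day 0 is not used as support. Nfkb1 was not analysed here. The genes were chosen by measured values of these same arrays. Which values these were is not recorded, and for Rel they are taken to be its levels in ruxolitinib skin. Rel, Rela, Relb and Bcl3 had a single probe set each, Nfkb2 and Nfkbie had 2, Nfkbiz had 3 and Nfkbia had 5.

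Female C57/B6 mice, 8.5 weeks old at day 0, gave a biopsy of the whole dorsal skin before treatment and another at day 5, after daily topical application for 4 days. The groups were tofacitinib at day 5 (mice 7, 8 and 9), ruxolitinib at day 5 (mice 4 and 6), DMSO at day 5 (mice 2 and 3) and untreated skin at day 0 (mice 1 to 9), 16 arrays in all. Tofacitinib and ruxolitinib are Janus kinase inhibitors, and DMSO was the vehicle alone. No source used here states a dose, so the 2 inhibitors cannot be compared at a matched dose. All groups share the strain, the sex and the body site, and the day-5 groups also share an earlier biopsy of the same animal. The titles write C57/B7 where the other fields write C57/B6. Mouse 7 has conflicting labels at day 5: the title, treatment and source fields say tofacitinib, and the free description says ruxolitinib. The array was grouped as tofacitinib, and values without it are given beside many, not all, of the tofacitinib results. Where none is given, the result is not thereby shown to be unmoved by this array.

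NF-kB transcription factors are dimers of Rel-family proteins that bind kB sites in DNA. In unstimulated cells, IkB proteins such as IkB-alpha (Nfkbia) and IkB-epsilon (Nfkbie) hold them in the cytoplasm. Cytokine and pattern-recognition receptors lead to degradation of these inhibitors through the IkB kinase complex, and many genes of the system are themselves NF-kB targets. IkB-zeta (Nfkbiz) and Bcl3 act instead in the nucleus, where they bind DNA-bound NF-kB dimers, and IkB-zeta is known in keratinocytes for its part in the response to interleukin-17.

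Promoter sequences are shown because several members are textbook targets of their own pathway. In RefSeq promoters of build GRCm38.p6, which run from 250 bases before to 50 bases after a transcript start, the kB consensus was searched by its usual degenerate form on both strands. It was found in 2779 of 32851 promoters (8.46%). Promoters were given for 6 of the 8 measured members, 8 promoters in all, and 7 of these promoters, from 5 genes, held a match. The window printed for Rel lies at chr11:23771032-23771081 (minus strand, match starting at -92 from that start), and that for Nfkb2 at chr19:46304678-46304727 (plus strand, -39). That for Nfkbia lies at chr12:55492647-55492696 (minus strand, -29) and that for Nfkbie at chr17:45555574-45555623 (plus strand, -106). The Nfkb2 window belongs to the first of 3 transcript starts in that table, all of which lie inside the gene as RefSeq spans it (chr19:46300994-46312400), so -39 is not a distance from the gene's outermost start. Capitals mark the match, and each line is read 5′ to 3′ on the gene's strand.
Rel: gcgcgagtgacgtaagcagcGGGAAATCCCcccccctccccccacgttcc
Nfkb2: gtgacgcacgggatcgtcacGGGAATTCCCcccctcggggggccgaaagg
Nfkbia: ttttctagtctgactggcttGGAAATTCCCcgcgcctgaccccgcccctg
Nfkbie: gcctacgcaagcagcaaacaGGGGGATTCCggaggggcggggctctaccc
Bcl3 held the match GGGAAGTCCC starting at 2 bases after the start used for its promoter. The Rela promoter held none in this window. A match describes the letters only; no binding was measured.

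Rel, the gene of the c-Rel subunit best known from lymphoid cells, was high in ruxolitinib-treated skin alone. Values are log2 expression values in the authors' GCRMA processing. Rel (1420710_at) had 5.37, 4.24 and 4.80 in tofacitinib mice 7, 8 and 9, 8.53 and 8.37 in ruxolitinib mice 4 and 6, and 4.39 and 4.19 in DMSO mice 2 and 3. In the 9 day-0 arrays it ran between 3.53 and 4.42 with a median of 3.89. Both ruxolitinib arrays thus lay more than 3 log2 units above every other array, whereas tofacitinib overlapped DMSO and DMSO overlapped day 0. Group means were 4.80 ± 0.56 with tofacitinib (SD, n = 3), 8.45 ± 0.11 with ruxolitinib (n = 2), 4.29 ± 0.14 with DMSO (n = 2) and 3.96 ± 0.30 at day 0 (n = 9).

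The ruxolitinib mean was 4.17 log2 units above DMSO (17.9-fold) and 4.51 above day 0 (22.8-fold). Among the 20992 probe sets fitted, the difference from DMSO ranked 1st from the highest and the difference from day 0 ranked 6th. Tofacitinib lay 0.48 above DMSO, rank 2169, and 0.83 above day 0. Without mouse 7 those differences were 0.12 and 0.49. Tofacitinib minus ruxolitinib was -3.69, the lowest of all probe sets, and -4.05 without mouse 7. In order of level, ruxolitinib stood first, followed by tofacitinib, DMSO and day 0. The arrays of neighbours in the last 3 places overlapped, so their order is within the spread. Because of how Rel was chosen, these numbers are a description without a test. It is left out of every count below.

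Within animals the same arrays gave day 5 minus day 0 of 1.32, -0.19 and 0.62 in tofacitinib mice 7, 8 and 9, 4.88 and 4.48 in ruxolitinib mice 4 and 6, and 0.57 and 0.42 in DMSO mice 2 and 3. Only 1 probe set reads Rel, so no second probe set is there to set beside it. In bulk skin, more cells that carry a transcript and more of it in each cell cannot be told apart. T cells are a main source of c-Rel, and their markers were low at day 5: the mean log2 value of the 4 measured markers was 3.38 to 4.17 with tofacitinib, 3.25 to 3.69 with ruxolitinib and 3.75 to 3.81 with DMSO, against 5.57 to 6.83 at day 0. The mean of the 3 measured B cell markers was 2.11 to 2.41 with tofacitinib, 2.18 to 2.19 with ruxolitinib and 2.22 to 2.25 with DMSO, against 1.84 to 2.06 at day 0. Among them Ms4a1 was at or under 2.43, the highest of the control probe sets without a target, in all 16 arrays, and Cd79a and Cd79b reached at most 2.73 and 2.74. The part of these cells in the Rel values was not tested.

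**Figure D1:**
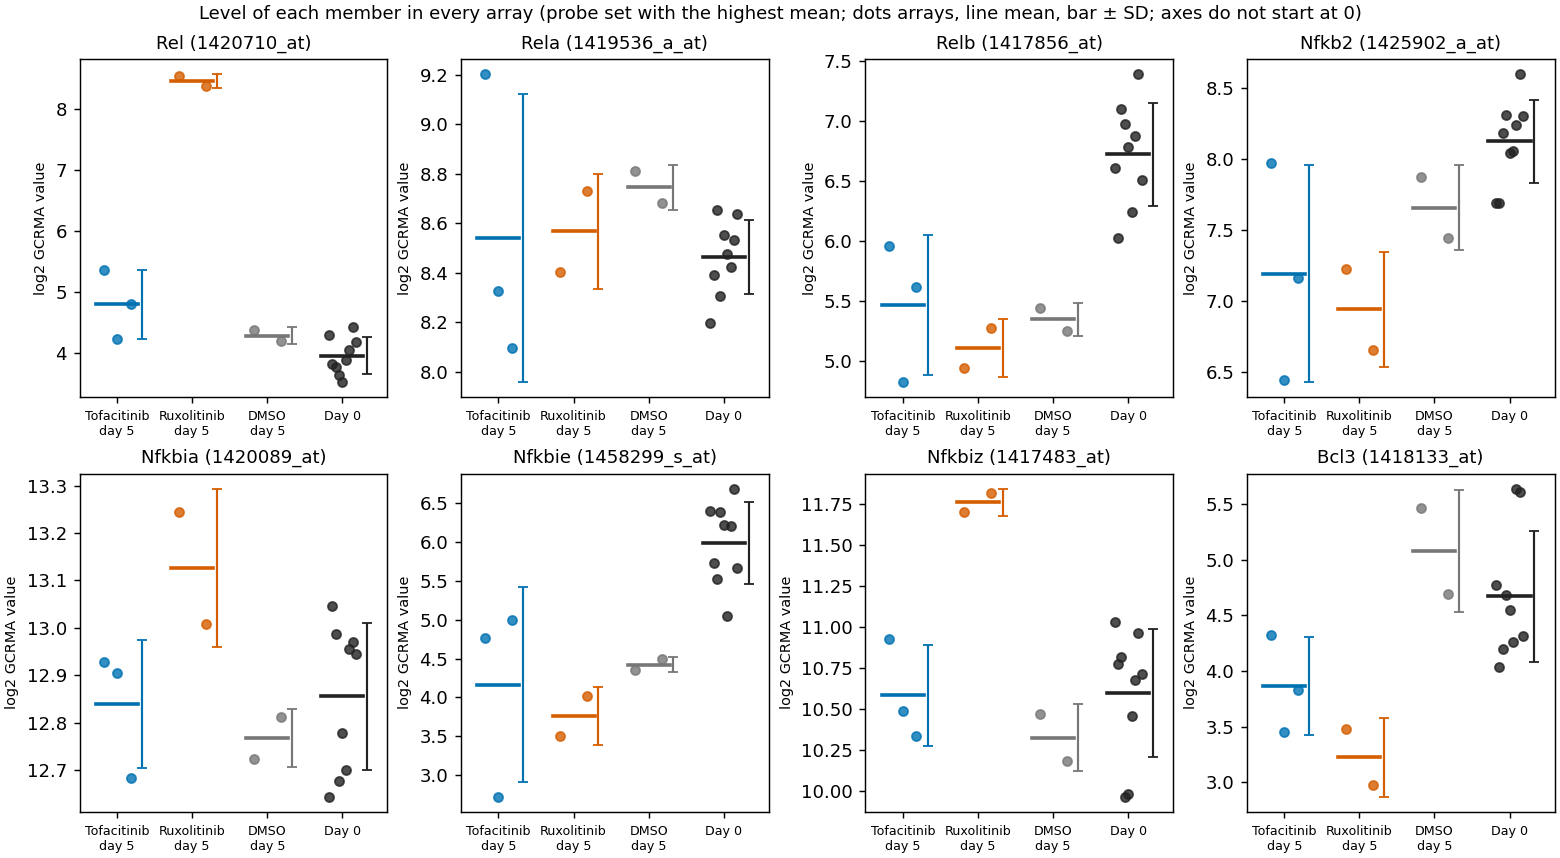
Log2 GCRMA value (vertical axes, not starting at 0) of each member gene in each array, by group (horizontal axes); dots are arrays, thick lines group means and bars SD. The 2 ruxolitinib arrays of Rel, at 8.53 and 8.37, stand above all other arrays, and for Relb and Nfkbie every day-5 array lies under every day-0 array.

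Genes with values like those of Rel over the 16 arrays were searched with members and predicted genes left out. The closest were Rps25, a ribosomal protein (1430978_at, Pearson r = 0.95), and Cdk13, a transcriptional kinase (1440833_at, 0.93). Next came Cep57, a centrosomal protein (1428968_at, 0.90), Nsd3, a histone methyltransferase (1447931_at, 0.89) and Rsrc2 (1454074_a_at, 0.89). The likeness rests largely on the 2 ruxolitinib arrays: over the 9 day-0 arrays alone r was 0.58 for Rps25, 0.49 for Cdk13, 0.56 for Cep57, 0.51 for Nsd3 and 0.83 for Rsrc2. The probe sets in question were 0.67 to 2.85 log2 units higher with ruxolitinib than with DMSO. The 11 other probe sets of the same genes differed by -0.85 to 1.07 in that comparison, a range that overlaps the first. For Cdk13, 1440833_at averaged 9.76 ± 0.61 with ruxolitinib and 6.92 ± 0.21 with DMSO (SD, n = 2 each), whereas 1452897_at averaged 6.78 ± 0.11 with ruxolitinib and 6.70 ± 0.04 with DMSO. Which transcripts these probe sets read was not tested here.

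**Figure D2:**
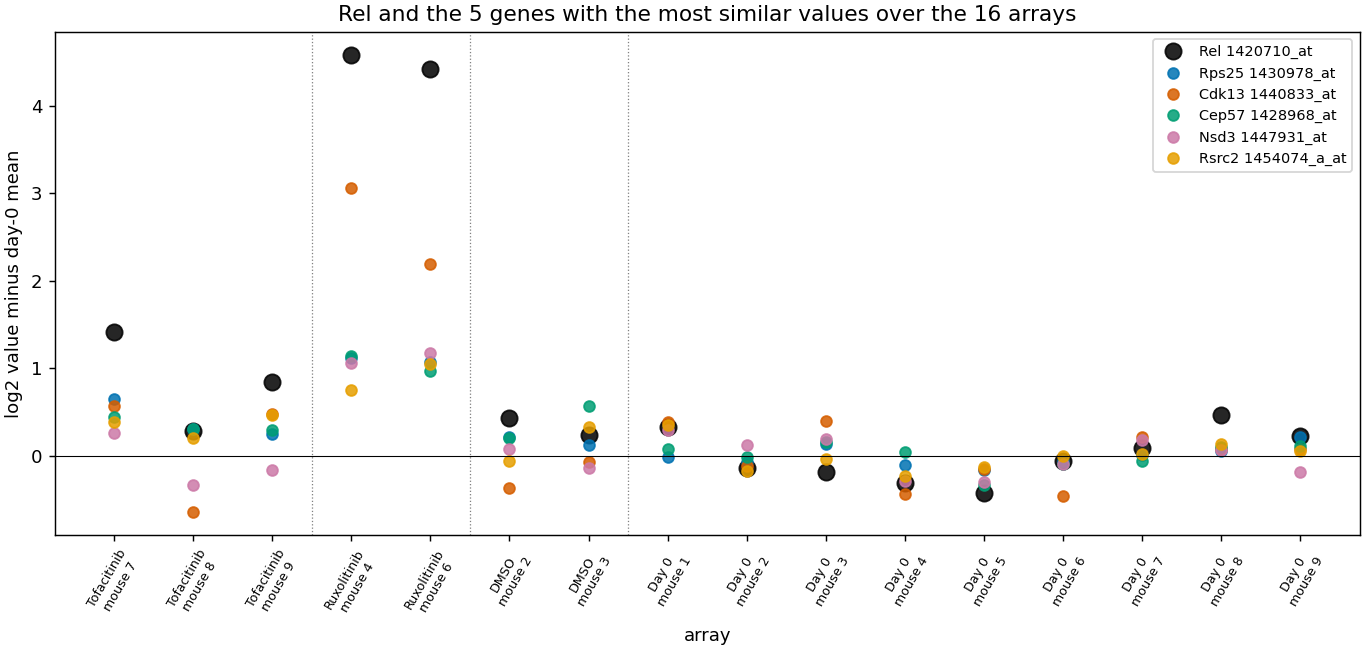
Log2 value minus the day-0 mean (vertical axis) in each of the 16 arrays (horizontal axis) for Rel and the 5 genes most like it; each dot is an array. All 6 probe sets are highest in the 2 ruxolitinib arrays, with Rel 4.51 above the day-0 mean on average.

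The other 15 member probe sets, from 7 genes, were tested in limma over all 20992 probe sets, with Benjamini-Hochberg adjusted p-values and a threshold of 0.05. Against day 0, 1 rose and 6 fell with tofacitinib (23.1% of all probe sets were higher and 25% lower, 48.1% in all), and without mouse 7 the counts were 0 and 7. With ruxolitinib 1 rose and 5 fell (14% and 19% of all, 33.1% together), and with DMSO 0 rose and 4 fell (22.3% and 25.7%, 48.1% together). With the mouse as a fixed block, which uses only differences within animals, 6, 1 and 2 passed in the same 3 comparisons, where 36.8%, 10.6% and 27% of all probe sets did. Among the 19110 probe sets that exceeded the filter on both days, which leaves out Nfkbie 1431843_a_at, 6 of 14 members passed with tofacitinib, 5 with ruxolitinib and 3 with DMSO (46.4%, 31% and 46.8% of all), of which 5, 4 and 3 were lower (24.1%, 18% and 25.1% of all). The members' median log2 difference was -0.45 with tofacitinib, 0.11 with ruxolitinib and -0.30 with DMSO, against 0.00, 0.00 and -0.03 over all probe sets. The next shares count Nfkbie 1431843_a_at, whose test is not used as support. The share of members called lower was 40% with tofacitinib, 33.3% with ruxolitinib and 26.7% with DMSO. In all 3 groups it lay above the share of the whole array called lower (25%, 19% and 25.7%), with DMSO only slightly. These gaps were not tested, several of these probe sets read the same gene, and nothing is read from them. The 3 comparisons share the 9 day-0 arrays, and the members were chosen with earlier results of these data known, so the calls are not independent evidence.

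Between day-5 groups few probe sets passed. Ruxolitinib against DMSO had 1 member higher and 0 lower of 15 (1.01% of all probe sets passed, 0.848% higher and 0.162% lower), against 6 at an unadjusted p under 0.05. Counts of 0 were found for tofacitinib against DMSO (0.0667% of all, 0.0619% higher and 0.00476% lower), for both inhibitors against DMSO (0.734%, 0.6% higher and 0.133% lower) and for tofacitinib against ruxolitinib (0.276%), where limma gave 1, 2 and 4 at an unadjusted p under 0.05. The share of all probe sets at an unadjusted p under 0.05 was not counted. The percentages above are for the adjusted p and cannot be set beside the unadjusted counts, so nothing is read from those counts. Groups of 2 and 3 arrays limit these comparisons, and a p that missed the threshold does not show equality.

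**Figure D3:**
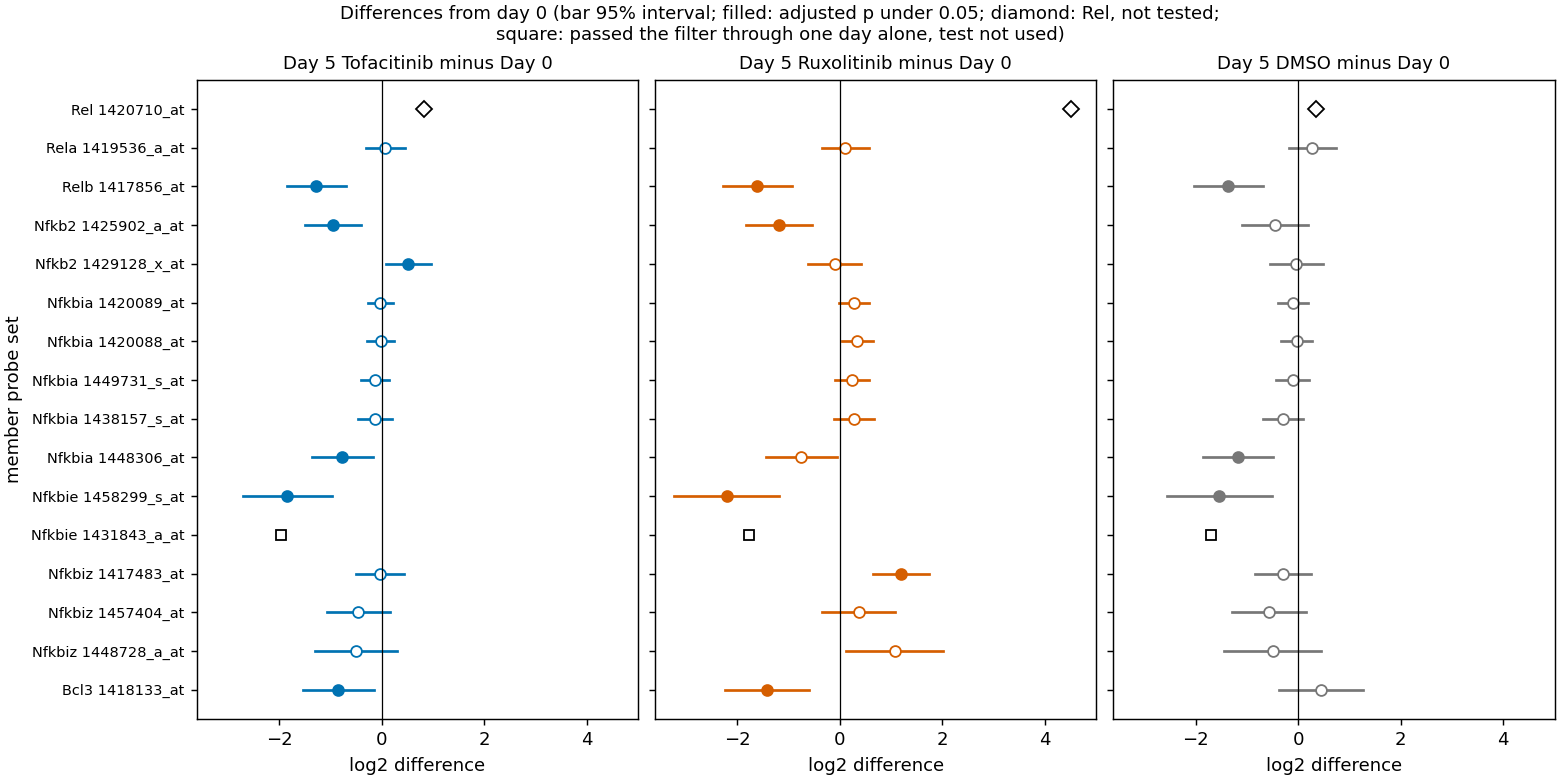
Log2 difference from day 0 (horizontal axes) of each member probe set (vertical axis) in tofacitinib, ruxolitinib and DMSO skin; bars are 95% intervals, filled dots passed at an adjusted p under 0.05, and the diamond for Rel was not tested, and the square for Nfkbie 1431843_a_at passed the filter through day-0 arrays alone. Relb and Nfkbie 1458299_s_at are filled and left of 0 in all 3 panels, and Nfkbiz 1417483_at is filled and right of 0 with ruxolitinib only.

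The remaining subunits did not share the pattern of Rel. Rela, the gene of p65, the partner of p50 in the most common NF-kB dimer, passed in no comparison. It averaged 8.54 ± 0.58 with tofacitinib (SD, n = 3), 8.57 ± 0.23 with ruxolitinib (n = 2), 8.75 ± 0.09 with DMSO (n = 2) and 8.46 ± 0.15 at day 0 (n = 9). Its difference from day 0 was 0.28 with DMSO, with a 95% interval of -0.18 to 0.73. In tofacitinib mouse 7 Rela was 9.20, above all other arrays. With tofacitinib its difference was 0.07 from day 0 and -0.20 from DMSO, and without mouse 7 these were -0.28 (adjusted p = 0.105) and -0.55 (0.46).

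Relb, the subunit of the alternative pathway that pairs with p52, fell in all 3 day-5 groups. It had 5.96, 4.83 and 5.62 in tofacitinib mice 7, 8 and 9, 4.94 and 5.28 in ruxolitinib mice, and 5.44 and 5.25 in DMSO mice, against 6.03 to 7.39 at day 0 with a median of 6.78. Every day-5 array lay under every day-0 array. The log2 differences from day 0 were -1.27 ± 0.27 with tofacitinib (SE, adjusted p = 0.00155), -1.61 ± 0.31 with ruxolitinib (0.00144) and -1.36 ± 0.31 with DMSO (0.00289), so Relb fell to 0.414, 0.328 and 0.388 of its day-0 level. All 7 mice with both arrays were lower at day 5, with differences of -2.56 to -0.58. With the mouse as a fixed block, tofacitinib kept its call (adjusted p = 0.0301), and ruxolitinib (0.0981) and DMSO (0.108) did not. Without mouse 7 the tofacitinib difference was -1.55. Tofacitinib minus ruxolitinib was 0.34 (95% interval -0.46 to 1.13) and ruxolitinib minus DMSO was -0.24 (-1.11 to 0.63).

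Nfkb2, whose product p100 is cut to p52 and also acts as an IkB, was read by 2 probe sets that went different ways. On 1425902_a_at it had 7.97, 6.45 and 7.17 in tofacitinib mice 7, 8 and 9, 7.23 and 6.66 in ruxolitinib mice, and 7.87 and 7.45 in DMSO mice, against 7.69 to 8.59 at day 0. The ruxolitinib arrays lay under all day-0 arrays, and the others overlapped them. This probe set fell by 0.95 ± 0.26 with tofacitinib (adjusted p = 0.00777) and by 1.19 ± 0.30 with ruxolitinib (0.00824), and its value was -0.45 ± 0.30 with DMSO (0.234). The ruxolitinib call was lost with the fixed block (0.107) and without ruxolitinib mouse 6 (0.148). The tofacitinib call was lost without mouse 8 (-0.56, adjusted p = 0.0916), and the difference was -1.39 without mouse 7. On the mean of both Nfkb2 probe sets neither call held: the difference was -0.21 with tofacitinib (0.43) and -0.65 with ruxolitinib (0.0546).

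On 1429128_x_at Nfkb2 was instead 0.52 ± 0.21 higher with tofacitinib than at day 0 (adjusted p = 0.0476). Its values were 5.19, 4.63 and 4.94 in tofacitinib mice and 3.80 to 5.04 at day 0, which overlap. That call was lost without mouse 7 (0.32, adjusted p = 0.274), without mouse 9 (0.122), without the day-0 array of mouse 1, 2, 4, 6, 7 or 9, without any one DMSO or ruxolitinib array, and with the fixed block (0.337). The same call was lost with no filter (0.0559) and with only the groups compared (0.0658). Over the 16 arrays the 2 probe sets had r = 0.09, and 0.62 around their group means. The ending of this probe set's name marks probes that may read other transcripts, and which of the probe sets reflects Nfkb2 was not tested.

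Nfkbia, the inhibitor IkB-alpha and a rapid NF-kB target, was read by 5 probe sets. Its 4 brightest, 1420089_at, 1420088_at, 1449731_s_at and 1438157_s_at, passed in no comparison, and their pairwise r over the 16 arrays lay between 0.76 and 0.90. On 1420089_at the values were 12.93, 12.91 and 12.68 in tofacitinib mice, 13.24 and 13.01 in ruxolitinib mice and 12.72 and 12.81 in DMSO mice, against 12.64 to 13.05 at day 0. Ruxolitinib arrays lay above all tofacitinib and DMSO arrays. Within animals these 4 probe sets were higher at day 5 in both ruxolitinib mice, by 0.31 to 0.87, and lower in all 3 tofacitinib and both DMSO mice, at -0.59 to -0.03. The fit on changes within mice gave ruxolitinib minus DMSO of 0.63 to 1.10 with adjusted p-values of 0.238 to 0.321. On day-5 levels it was 0.34 to 0.58 (0.252 to 0.429). Neither passed. Without tofacitinib mouse 7, ruxolitinib passed against day 0 on 1420088_at (adjusted p = 0.0481).

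The fifth Nfkbia probe set, 1448306_at, fell by 0.76 ± 0.28 with tofacitinib (adjusted p = 0.0331) and by 1.17 ± 0.32 with DMSO (0.00863). With ruxolitinib its value was -0.75 ± 0.32 (0.0866). It had 10.21, 9.46 and 9.39 in tofacitinib mice, 9.50 and 9.74 in ruxolitinib mice and 8.86 and 9.66 in DMSO mice, against 9.59 to 11.04 at day 0. All 7 mice were lower at day 5, with differences of -0.09 and -0.41 in ruxolitinib mice 4 and 6. With the fixed block the difference was -1.15 with tofacitinib and -0.25 with ruxolitinib (0.631). Without mouse 7 the tofacitinib difference was -1.09 (adjusted p = 0.0076). The DMSO call was lost without DMSO mouse 2 (-0.74, adjusted p = 0.213), and the tofacitinib call without mouse 8 (0.144), without mouse 9 (0.189) and without the day-0 array of mouse 2, 3 or 8. Without the day-0 array of mouse 4, ruxolitinib passed (0.0313). Its r with the other 4 was 0.16 to 0.60, and 0.38 to 0.83 around the group means. Within animals the gene's probe sets were all lower at day 5 with tofacitinib and DMSO and differed in direction with ruxolitinib only. Because 1448306_at alone passed as lower, whether Nfkbia fell beyond the spread depends on the probe set.

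Nfkbie, the inhibitor IkB-epsilon, fell in all 3 day-5 groups on 1458299_s_at. It had 4.77, 2.73 and 5.00 in tofacitinib mice 7, 8 and 9, 3.50 and 4.02 in ruxolitinib mice, and 4.35 and 4.49 in DMSO mice, against 5.05 to 6.68 at day 0. Each day-5 array lay under each day-0 array. The differences were -1.84 ± 0.41 with tofacitinib (adjusted p = 0.00225), -2.20 ± 0.48 with ruxolitinib (0.00305) and -1.54 ± 0.48 with DMSO (0.0167). With the fixed block tofacitinib kept its call (0.0378), and ruxolitinib (0.135) and DMSO (0.257) did not. Without tofacitinib mouse 8 the tofacitinib difference was -1.10, still past the threshold (0.02). The DMSO call was also lost without either DMSO mouse (0.104 and 0.0721) and the ruxolitinib call without mouse 4 (0.0711).

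On 1431843_a_at Nfkbie had 2.26, 1.81 and 2.59 in tofacitinib mice, 2.81 and 1.91 in ruxolitinib mice and 2.34 and 2.61 in DMSO mice, against 3.36 to 4.87 at day 0. Here 2 of 3 tofacitinib arrays, 1 of 2 ruxolitinib arrays and 1 of 2 DMSO arrays lay at or under 2.43, the highest value of the control probe sets without a target, so the size of the difference is uncertain. The fitted differences were -1.96 with tofacitinib, -1.78 with ruxolitinib and -1.69 with DMSO. They are given as values only, because this probe set entered the fit through its day-0 arrays alone. All 7 mice were lower on both probe sets, which had r = 0.89 over the 16 arrays. Without mouse 7 the tofacitinib differences were -2.16 and -1.97.

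Markers of several cell types also changed between day 0 and day 5, some downward like Relb and Nfkbie and others upward. Of the T cell markers tested, Cd3e exceeded the filter on both days and was lower in all 3 day-5 groups. Its log2 differences were -3.29 with tofacitinib, -2.94 with ruxolitinib and -2.24 with DMSO. Cd3d and Cd3g, also lower, exceeded the filter at day 0 alone. Of the basal keratinocyte markers 5 of 5 were lower in all 3 groups. Endothelial markers were higher in all 3 groups, 5 of 5, as were 3 of 5 fibroblast and 3 of 6 macrophage markers. Over all 12087 genes tested, 21.9% were higher and 26.8% lower with tofacitinib. The shares were 12.1% and 20.9% with ruxolitinib and 21.5% and 28.2% with DMSO. Marker counts near these shares are not read as changes of a cell type. Of the mast cell markers 5 of 5 were higher with tofacitinib, 5 with ruxolitinib and 1 with DMSO. Of the Langerhans and dendritic cell markers 2 of 5 were lower with tofacitinib (Cd74 at -0.93 and H2-Eb1 at -1.02) and with ruxolitinib (-1.19 and -1.17), and 0 with DMSO. Adipocyte markers were higher for 2 of 4, 1 of 4 and 1 of 4 in tofacitinib, ruxolitinib and DMSO skin, and skeletal muscle markers for 2, 0 and 2 of 5. Of the suprabasal keratinocyte markers 1 was higher and 1 lower with tofacitinib, 1 was higher with ruxolitinib and 2 were lower with DMSO. Among all these markers, 2 of the T cell list and 1 of the Langerhans and dendritic cell list exceeded the filter at day 0 alone. At day 5 alone it was exceeded by 3 of the endothelial, 2 of the mast cell and 1 of the macrophage list. The tests of these markers are not used as support. The mean of the fibroblast markers was 9.45 to 10.12 with tofacitinib, 9.66 to 10.08 with ruxolitinib and 9.19 to 9.58 with DMSO, against 6.74 to 8.69 at day 0. That of the macrophage markers was 6.12 to 6.92 with tofacitinib, 6.66 to 6.83 with ruxolitinib and 6.62 to 6.75 with DMSO, against 5.16 to 6.401 at day 0. The mast cell mean was 4.89 to 6.14 with tofacitinib, 5.16 to 5.64 with ruxolitinib and 4.48 to 4.78 with DMSO, against 2.73 to 4.65 at day 0. The Langerhans and dendritic cell mean was 6.44 to 7.43 with tofacitinib, 6.37 to 6.80 with ruxolitinib and 6.99 to 7.14 with DMSO, against 6.83 to 7.95 at day 0. The adipocyte mean was 10.85 to 11.42 with tofacitinib, 10.95 to 11.31 with ruxolitinib and 10.84 to 10.93 with DMSO, against 5.57 to 10.52 at day 0. The part of these cells in the Relb and Nfkbie values was not tested.

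Nfkbiz, the nuclear IkB-zeta, rose with ruxolitinib. On 1417483_at it had 10.93, 10.49 and 10.34 in tofacitinib mice 7, 8 and 9, 11.70 and 11.81 in ruxolitinib mice 4 and 6, and 10.47 and 10.18 in DMSO mice 2 and 3, against 9.97 to 11.03 at day 0 with a median of 10.71. Both ruxolitinib arrays lay above all other arrays. Ruxolitinib was 1.19 ± 0.26 above day 0 (2.28-fold, adjusted p = 0.00278), a call kept with the fixed block (1.54, adjusted p = 0.0147) and without each array in turn (0.00134 to 0.0356). Tofacitinib (-0.03 ± 0.22) and DMSO (-0.29 ± 0.26) did not pass against day 0. Without mouse 7 the tofacitinib difference was -0.24 (adjusted p = 0.427).

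Against DMSO, Nfkbiz on this probe set was 1.48 ± 0.33 higher with ruxolitinib (2.78-fold, adjusted p = 0.0475), the single member call between day-5 groups. That call was lost with the fixed block (2.01, adjusted p = 0.238), without either DMSO or ruxolitinib mouse (0.152 to 0.203), without tofacitinib mouse 8 (0.0651), among probe sets that exceeded the filter on both days (0.0527) and without the day-0 array of mouse 2, 3, 6, 7, 8 or 9, while the difference stayed between 1.27 and 2.01. Tofacitinib minus ruxolitinib was -1.22 ± 0.30 (95% interval -1.86 to -0.57, adjusted p = 0.178) and -1.48 without mouse 7 (0.0547).

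The other 2 Nfkbiz probe sets passed in no comparison. With ruxolitinib they were 0.37 ± 0.34 (1457404_at, adjusted p = 0.414) and 1.07 ± 0.45 (1448728_a_at, 0.0766) above day 0, and on each the ruxolitinib arrays overlapped those of day 0. Without ruxolitinib mouse 6 these differences were 0.01 and 0.63, and with the fixed block they were 0.99 (0.0898) and 1.63 (0.103). Ruxolitinib minus DMSO was 0.94 ± 0.44 on 1457404_at (adjusted p = 0.321) and 1.57 ± 0.58 on 1448728_a_at (0.204). With the fixed block these were 1.73 (0.238) and 2.56 (0.261). Their r with 1417483_at was 0.64 and 0.76. Without tofacitinib mouse 7, 1448728_a_at was 2.28 lower with tofacitinib than with ruxolitinib (adjusted p = 0.0407), 1.12 lower with tofacitinib than at day 0 (0.0161) and higher with ruxolitinib than at day 0 (1.15, adjusted p = 0.0192). Without the day-0 array of mouse 6, 1457404_at was lower than at day 0 with tofacitinib (-0.58, adjusted p = 0.0431) and with DMSO (-0.69, 0.0402).

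Bcl3, which can activate or repress with p50 or p52 homodimers, fell with both inhibitors against day 0. It had 4.32, 3.45 and 3.82 in tofacitinib mice 7, 8 and 9, 3.48 and 2.97 in ruxolitinib mice, and 5.46 and 4.69 in DMSO mice, against 4.03 to 5.63 at day 0 with a median of 4.55. Both ruxolitinib arrays lay under all DMSO and day-0 arrays, and all 3 tofacitinib arrays lay under both DMSO arrays. Bcl3 fell by 1.43 ± 0.38 with ruxolitinib (adjusted p = 0.0107) and by 0.84 ± 0.33 with tofacitinib (0.0437), and its value was 0.45 ± 0.38 with DMSO (0.345). The ruxolitinib call was lost with the fixed block (0.0869) and without mouse 6 (0.14). The tofacitinib call held with the fixed block (-1.32, adjusted p = 0.0194) and without mouse 7 (-1.10, adjusted p = 0.0262), and was lost without mouse 8 (0.223) or 9 (0.145), without either DMSO array, and without the day-0 array of mouse 1, 4, 5, 7 or 8. It was also lost with no replicate block (0.0594), no filter (0.066), quantile normalization (0.0583) and only the groups compared (0.0604). Of 24 alternative settings, 11 kept this call.

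Within animals Bcl3 was lower at day 5 in all 5 mice given an inhibitor, with differences of -2.16 to -0.48, and higher in both DMSO mice, by 1.43 and 0.50. In the fit on changes within mice the difference from DMSO was -2.28 with tofacitinib (adjusted p = 1), -2.21 with ruxolitinib (0.238) and -2.25 for both (0.518), so it did not pass. On day-5 levels it did not pass either: -1.30 ± 0.45 with tofacitinib (95% interval -2.26 to -0.33, adjusted p = 0.404), -1.88 ± 0.50 with ruxolitinib (-2.94 to -0.82, 0.0814) and -1.59 ± 0.42 for both (0.093). Leaving out single arrays moved the tofacitinib value over -1.62 (without tofacitinib mouse 7) to -0.79 (without DMSO mouse 2).

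**Figure D4:**
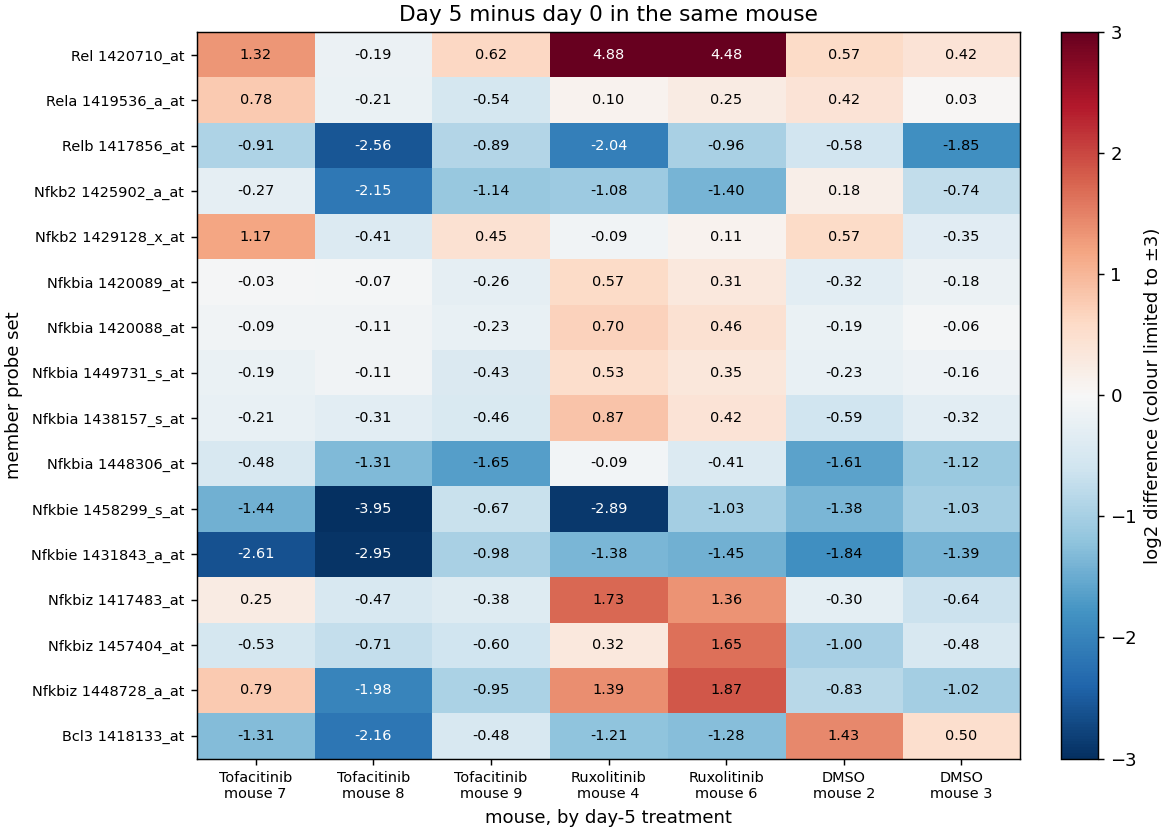
Day 5 minus day 0 log2 difference in the same mouse (colour, limited to ±3, with the value printed) for each member probe set (rows) in the 7 mice with both arrays (columns). Relb, Nfkbie and Nfkbia 1448306_at are below 0 in all 7 mice, Rel is 4.88 and 4.48 in the ruxolitinib mice, and Bcl3 is above 0 in the 2 DMSO mice only.

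Arrays of 2 groups can also be compared by whether their values overlap, which uses no model. Against day 0, 0 member probe sets lay wholly higher and 3 wholly lower with tofacitinib (13.3% of all probe sets were wholly higher and 16.4% lower, 29.8% in all). Nfkbie 1431843_a_at is 1 of the lower ones in each comparison with day 0. With ruxolitinib 2 and 5 did (18.2% and 21.6%, 39.8% in all), and with DMSO 1 and 3 (22% and 25.9%, 48% in all). Ruxolitinib lay wholly above DMSO for 7 and wholly below for 4 of the 15 (24.5% and 25%, 49.5% in all). Tofacitinib lay wholly above DMSO for 1 and below for 1 (11% and 9.14%, 20.1% in all), and both inhibitors together above for 0 and below for 1, Bcl3 (7.84% and 6.97%, 14.8% in all). Tofacitinib lay wholly above ruxolitinib for 1 and below for 6 (9.06% and 9.15%, 18.2% in all). The 6 are the 4 bright Nfkbia probe sets and 2 of Nfkbiz, so they are 2 genes and not 6 separate observations.

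Other genes of the pathway were read through lists chosen for their roles with earlier results of these data known, each gene by its brightest probe set. Over all 12087 genes tested, 48.8% passed with tofacitinib against day 0 (21.9% higher, 26.8% lower), 33.1% with ruxolitinib (12.1% and 20.9%) and 49.7% with DMSO (21.5% and 28.2%). Upstream adaptors and ubiquitin ligases fell and none of them rose: 11 of 18 with tofacitinib, 9 of 18 with ruxolitinib and 11 of 18 with DMSO. The list's median difference was -0.71, -0.55 and -0.62 in these groups, against -0.02, -0.03 and -0.05 over all genes. With the fixed block the counts were 11, 3 and 5, where 37.8%, 10.4% and 28.5% of all genes passed. Traf1 exceeded the filter through day-0 arrays alone. Without genes that did so on one day alone, 10, 8 and 11 of 17 adaptors were lower, and 47.3%, 31.2% and 48.6% of all genes passed.

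The adaptors with the smallest p were Traf5, Card14 and Rbck1. Traf5, a signalling adaptor of tumour necrosis factor receptors, fell, with log2 differences of -2.22, -1.88 and -1.90 in tofacitinib, ruxolitinib and DMSO skin. Card14, the scaffold of keratinocyte NF-kB signalling, differed by -1.54, -1.53 and -2.28, and Rbck1, a part of the linear ubiquitin ligase, by -0.73, -1.04 and -0.79. With the fixed block Card14 was lost with ruxolitinib (adjusted p = 0.14, and 0.06 and 0.0663 without mouse 4 or 6) and Rbck1 with DMSO (0.0868). Basal keratinocyte markers were lower at day 5 too, 5 of 5 in each comparison. Their mean log2 value was 10.75 to 11.12 with tofacitinib, 10.81 to 11.08 with ruxolitinib and 10.79 to 10.81 with DMSO, against 11.71 to 12.17 at day 0. Their part in the result was not tested.

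Of 13 receptors tested, 3 rose and 7 fell with tofacitinib, 2 rose and 6 fell with ruxolitinib, and 4 rose and 7 fell with DMSO. Tnfrsf19, Tlr3 and Ltbr, named for the smallest F-test p of the list in these data, were lower in every day-5 group. Tnfrsf19 had log2 differences of -1.98, -2.06 and -1.84 in tofacitinib, ruxolitinib and DMSO skin. Tlr3, the receptor for double-stranded RNA, had -1.84, -1.85 and -2.13. Ltbr, the lymphotoxin receptor that leads to the Relb and p52 pathway, had -1.39, -1.61 and -1.55. All 9 of these calls held with the fixed block. With the block 10, 4 and 9 receptors passed, and the 4 with ruxolitinib were all lower. Among the 10 receptors that exceeded the filter on both days, 2 rose and 6 fell with tofacitinib, 1 and 5 with ruxolitinib and 2 and 6 with DMSO. Of the ligands, 2 of 11 were bright enough to test. Il1a, the alarm cytokine of keratinocytes, fell, with differences of -1.13 with tofacitinib, -1.13 with ruxolitinib and -1.76 with DMSO, and the ruxolitinib call was lost with the fixed block (adjusted p = 0.209) and without mouse 4 (0.342) or 6 (0.0557), the tofacitinib call without mouse 9 (0.103). Tnfsf13b, the B cell survival factor, was 0.63 higher with tofacitinib (adjusted p = 0.0209), a call lost with the block (0.0902) and without mouse 7 (0.156) or 9 (0.0508).

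Of 9 genes of the IkB kinase complex, related kinases and their partners, 3 rose and 3 fell with tofacitinib, 2 rose and 4 fell with ruxolitinib and 1 rose and 3 fell with DMSO. Ikbke, an inducible relative of the IkB kinases, had log2 differences of -2.19 with tofacitinib, -2.09 with ruxolitinib and -2.61 with DMSO, all past the threshold. Ikbkg, the regulatory subunit NEMO, had -0.59, -0.57 and -0.74 in the same order, with calls lost under the fixed block for ruxolitinib (0.0837) and DMSO (0.066), and without ruxolitinib mouse 6 (0.127). Map3k7, the kinase TAK1 that activates the complex, rose by 0.40, 0.75 and 0.50, with calls lost under the block for tofacitinib (0.102) and DMSO (0.147), without tofacitinib mouse 7 (0.0556) and, for DMSO, without mouse 3 (0.078). The block left 2, 2 and 1 of these 9 genes past the threshold.

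Of 7 deubiquitinases and partners that restrain the pathway, 4 fell with tofacitinib, 1 with ruxolitinib and 3 with DMSO, and 0 rose. With the block 2 were lower with tofacitinib and 1 with DMSO, and with ruxolitinib 1 was higher. Tnip1, a partner of A20, had -0.60 with tofacitinib, -0.65 with ruxolitinib and -0.63 with DMSO, and these calls were lost under the block (0.0607, 0.0886 and 0.169), that with ruxolitinib also without mouse 6 (0.181). Tnip2 fell by 0.94 with tofacitinib and by 0.89 with DMSO, the DMSO call being lost without mouse 2 (0.118). Zc3h12a, the ribonuclease Regnase, fell by 0.77 with tofacitinib and by 1.06 with DMSO, with both calls lost under the block (0.076 and 0.154), the DMSO call without mouse 3 (0.31), and the tofacitinib call without mouse 8 (0.14) or 9 (0.237), without either DMSO array and without the day-0 array of mouse 1, 3, 7 or 8. Without mouse 7 the tofacitinib difference of Zc3h12a was -1.055 (adjusted p = 0.0196). Of 3 further IkB relatives, 0 passed with tofacitinib and 1 fell in each of the other groups. This was Nfkbil1, which fell by 0.85 with ruxolitinib and by 0.67 with DMSO, both lost under the block (0.0625 and 0.101). The first was also lost without ruxolitinib mouse 6 (0.264), and the second without DMSO mouse 2 (0.191) or 3 (0.134) and without the day-0 array of mouse 3 or 4. Nfkbib (IkB-beta) was 0.47, 0.50 and 0.53 above day 0 in tofacitinib, ruxolitinib and DMSO skin, and Nfkbid was -0.28, -0.55 and -0.49, with no call. Without mouse 7 the tofacitinib difference of Nfkbid was -0.71 (adjusted p = 0.0957) and that of Nfkbil1 was -0.41 (0.158), against -0.25 with it. Nfkbib passed on leaving out some arrays: with ruxolitinib without mouse 6 (0.0263), with tofacitinib without mouse 8 (0.0393), and with tofacitinib and DMSO without the day-0 array of mouse 6 or either ruxolitinib array.

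Textbook target genes of NF-kB went both ways. Of 16 tested out of 27 listed, 5 rose and 6 fell with tofacitinib, 5 and 5 with ruxolitinib, and 4 and 3 with DMSO; the block left 10, 5 and 6. Of the 11 that exceeded the filter on both days, 3 rose and 4 fell with tofacitinib, 3 and 4 with ruxolitinib and 2 and 2 with DMSO. The named genes Mmp9, Vcam1 and Cxcl1 exceeded it on one day alone, so only their values are given. Mmp9, a gelatinase, had log2 differences of -3.04 with tofacitinib, -2.84 with ruxolitinib and -3.003 with DMSO, with 1 tofacitinib array under 2.43. On the mean of its probe sets the Mmp9 differences were -1.90, -1.83 and -1.92. Vcam1, an adhesion molecule of activated endothelium, was 1.69, 1.63 and 2.20 above day 0 in the same order. Cxcl1, a neutrophil chemokine, was 1.97, 2.75 and 1.97 above day 0, a size that is uncertain because some day-0 arrays lay under 2.43. Without mouse 7 the tofacitinib differences were -3.42 for Mmp9, 1.82 for Vcam1 and 1.33 for Cxcl1. Endothelial markers were higher in all 3 groups, 5 of 5, with a mean of 5.01 to 5.34 with tofacitinib, 4.74 to 5.27 with ruxolitinib and 5.02 to 5.84 with DMSO, against 2.62 to 4.17 at day 0. Of these 5 markers 3 exceeded the filter at day 5 alone, so their tests are not used as support. Their part in the Vcam1 difference was not tested.

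Of the targets of IkB-zeta known from keratinocytes, 4 of 9 were bright enough to test. With tofacitinib 2 rose, with ruxolitinib 1 rose, with DMSO 0 passed, and none fell. Of the 2 that exceeded the filter on both days, 1 rose with tofacitinib and 0 passed in the other groups. Lcn2, a siderophore-binding protein, exceeded it at day 5 alone, so only its values are given: 0.82 above day 0 with tofacitinib, 0.93 with ruxolitinib and 0.31 with DMSO. S100a9, a calprotectin subunit, was 1.30 higher with tofacitinib (0.0285), lost under the block (0.0916) and without mouse 7 (0.0786) or 8 (0.177). With ruxolitinib it was 1.02 higher (0.154), and it passed under the block (1.88, adjusted p = 0.0278). Its partner S100a8 was 0.74 and 0.68 higher with tofacitinib and ruxolitinib, without a call. It passed with tofacitinib without mouse 9 (0.0182) and without the day-0 array of mouse 1 or 7. S100a8 and S100a9 also belong to the neutrophil marker list, whose 4 measured genes averaged 3.24 to 3.88 with tofacitinib, 3.41 to 3.42 with ruxolitinib and 2.60 to 2.94 with DMSO, against 2.62 to 3.47 at day 0. The other two, Csf3r and Cxcr2, were at the level of the controls in all 16 arrays. The part of neutrophils in these values was not tested. No gene of any list passed for tofacitinib against DMSO (0.091% of all genes, all higher), ruxolitinib against DMSO (0.745%) or between the inhibitors (0.0414%).

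**Figure D5:**
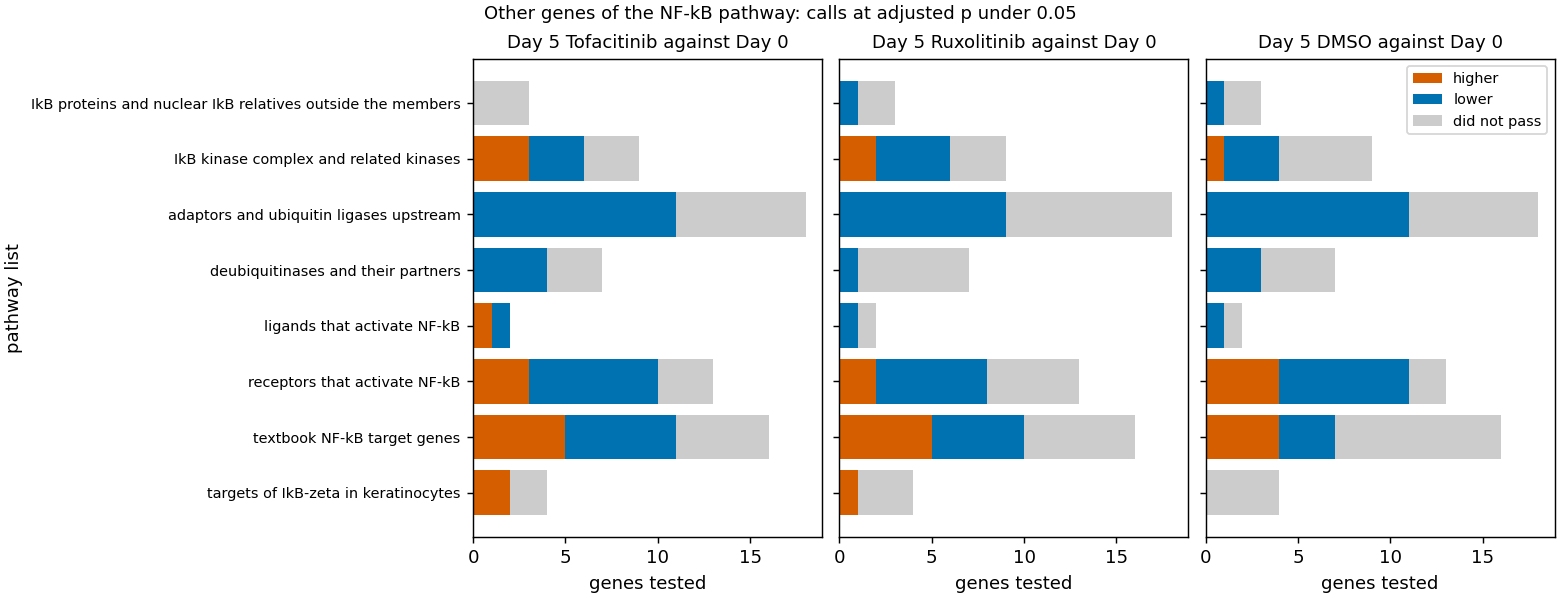
Number of genes tested (horizontal axes) in each pathway list (vertical axis) that passed higher, passed lower or did not pass at an adjusted p under 0.05, against day 0 in tofacitinib, ruxolitinib and DMSO skin. The adaptor list holds 11, 9 and 11 lower genes and none higher.

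Genes like Nfkbia and Nfkbiz were searched in the same way, again with members left out, so Rel could not appear among them. For Nfkbia (1420089_at) these were Atp2a2, a calcium pump of keratinocytes (r = 0.83 over the 16 arrays), Creb5 (0.78) and Hells (0.76). For Nfkbiz (1417483_at) they were Npat, a histone gene activator (0.93), Nsd3 (0.92) and Atp10d (0.91). Nsd3 1447931_at thus appears beside both Rel and Nfkbiz. On that probe set Nsd3 averaged 8.55 ± 0.31 with tofacitinib (SD, n = 3), 9.75 ± 0.08 with ruxolitinib (n = 2), 8.60 ± 0.15 with DMSO (n = 2) and 8.63 ± 0.22 at day 0 (n = 9). For the Nfkbiz neighbours r over the 9 day-0 arrays alone was 0.86, 0.85 and 0.87, so there the likeness did not rest on the ruxolitinib arrays alone. Those 9 arrays are part of the 16 by which the genes were picked, so this r is not an independent check.

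The arrays themselves were alike in overall level, with medians of 3.75 to 3.94. The difference between the 3′ and 5′ control probe sets of Gapdh, a sign of RNA quality, was 0.78 to 0.98 with tofacitinib, 0.87 to 0.93 with ruxolitinib and 0.83 to 0.88 with DMSO, against 0.82 to 1.47 at day 0. Keratinocyte markers were bright in all arrays, as the label skin implies, and so were skeletal muscle markers, at 12.52 to 13.57 on average.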

How the data were processed

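The authors deposited 1 log2 value for each probe set and array, computed with GCRMA from single-channel arrays, per the submitters' processing notes; per the labels' protocols, RNA came from flash-frozen skin and was amplified as cDNA and labelled with biotin. The version of GCRMA, and whether 1 run covered all arrays, is not given in the sources used here. Of 45101 probe sets, 34958 had 1 gene symbol in the platform table, 932 had several and 9211 were not listed. Those with 1 symbol and a log2 value above 4 in at least 2 arrays (20992, from 12087 genes) were fitted.

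All 16 arrays entered 1 limma fit (version 3.58.1, R 4.3.3) with 4 group means. Mouse entered as a random block through duplicateCorrelation, whose consensus was 0.078; there were 12 residual and 3.19 prior degrees of freedom. Benjamini-Hochberg adjustment ran over all fitted probe sets in each of 7 comparisons. A fold is the antilog of a log2 difference. The random block weights paired arrays, so a fitted difference can depart slightly from the difference of means. Pathway genes and marker tests used each gene's brightest fitted probe set, with the same adjusted p; marker levels used its brightest probe set, fitted or not. The labels place both biopsies on the same mouse for 7 animals. As a check, departures from the group means in the 2 arrays of a mouse had correlations of -0.24 to 0.19, above 0.1 in 2 of 7. The fit with the mouse as a fixed block uses within-mouse differences, and its values stand beside results whose call it changed. Intervals are at 95%. The fit was tested on simulated data.

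The members and lists were chosen with earlier results of these data known, which values led to the choice is not recorded in the sources used here, and Rel was given no test for that reason. The named genes are all members and up to 3 genes of each list with the smallest F-test p over the 3 day-0 comparisons together. Added to them are the 5 (Rel) or 3 (Nfkbia, Nfkbiz) genes with the highest r over the 16 arrays. Members and predicted genes were left out of that ranking by r. A value counted as background at or under the highest of 27 control probe sets without a target, 2.43. The number of arrays limits the precision.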

Additional observations from a re-analysis of the deposited data

Results flagged for a closer look

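Nfkbiz on 1417483_at was 1.48 log2 units higher at day 5 with ruxolitinib than with DMSO (adjusted p = 0.0475, limma), with day 5 minus day 0 of 1.73 and 1.36 in the 2 ruxolitinib mice, against -0.30 and -0.64 in the 2 DMSO mice. It is listed because both ruxolitinib mice moved up and both DMSO mice moved down, and because the day-5 levels differed. In the fit on changes within mice the difference was 2.01 (adjusted p = 0.238), so the difference in change did not pass, and the call on levels was lost in most of the alternative settings. No array stood apart from its group by Dixon's criterion (critical value 0.493 for 9 arrays) in the 16 day-0 groups checked; groups of 2 and 3 arrays cannot be checked this way.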

How the results depend on the processing

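Against day 0, the count of member probe sets other than Rel that passed was 7 with tofacitinib, 6 with ruxolitinib and 4 with DMSO. With the mouse as a fixed replicate block it was 6, 1 and 2. With 1 probe set per gene it was 4 (tofacitinib) and 2 (DMSO), with the mean of a gene's probe sets 3 and 2, in both of which fewer probe sets are tested, and with a filter at 6 it was 4 for tofacitinib. Leaving out each array in turn gave 4 to 7 with tofacitinib (4 without mouse 8 or 9), 3 to 8 with ruxolitinib (3 without mouse 6) and 2 to 5 with DMSO (2 without mouse 2). The 1 call for ruxolitinib against DMSO became 0 with the fixed block, with no replicate block, with 1 probe set per gene, with the mean of probe sets, with no filter, with only probe sets that exceeded the filter on both days (chosen after seeing the data) and with only the groups compared, and was 0 to 1 on leaving out arrays. Tofacitinib against ruxolitinib had 0 calls, and 0 to 1 on leaving out arrays (1 without tofacitinib mouse 7). Where a value does not show it, the cause was not tested. No called value changed direction in any setting. Of the values of single member probe sets other than Rel, 2410 kept their side of the threshold, 68 lost a call and 7 gained 1. Most of the 2410 belong to comparisons without a call to lose, so they say little about how well the calls held. For Rel, which was not tested, 171 values moved by less than the spread between replicates and 4 by more: tofacitinib minus DMSO was 0.09 with the fixed block and 0.12 without mouse 7, and tofacitinib minus ruxolitinib was -4.10 and -4.05. The pathway lists and their named genes were run under the same settings, chosen after seeing the data: 2933 values held, 53 lost a call, 17 gained 1 and 53 counts moved by over 1.5 times. Quantile normalization lost 1 member call, Bcl3 with tofacitinib (adjusted p = 0.0583). The arrays number 2 or 3 in each day-5 group, and probe sets near 2.43 have no firm size.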
